A study of Saccharomyces cerevisiae with 17 samples.

Results

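Lager yeast 8 h into a brewery fermentation was set against the same strain at the start of a propagation, 0 h. The 3 arrays labelled fermentation 8 h and the 3 labelled propagation 0 h entered, 6 of the 17 arrays in the series, with every Saccharomyces cerevisiae gene that a probe set was listed for, 5449 genes in all. The arrays were taken by their labels and not by their values. The strain, CB11, is a lager brewing yeast. Lager yeasts are hybrids of S. cerevisiae and a close relative, and on these arrays the transcripts from each parent cannot be read separately.

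The fermentation 8 h samples came from a 3275 hL vessel filled with yeast that had already been through 4 fermentations. Its wort carried 25 mg/L dissolved oxygen at filling and 0.2 mg/L zinc sulphate, and the sample was drawn 8 h after the last yeast went in and 5 h after the last wort. The propagation 0 h samples came from a 140 hL vessel just after it was inoculated with yeast grown with oxygen in a smaller vessel. That wort was held at 20 °C and 7 to 8 mg/L dissolved oxygen, and contained 0.5 mg/L zinc ions. The malt and sugar recipe was shared. Each stage was a single vessel sampled in triplicate, so the p-values measure only the spread between samples of a vessel, which may be technical. A temperature for the fermentation vessel was not among the details used here. Time, vessel, oxygen supply, zinc, any difference in temperature and the history of the yeast cannot be told apart as sources of a difference.

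Brewing yeast grows during propagation while oxygen is supplied, and in fermentation it uses up the oxygen soon after pitching and turns the wort sugars glucose, maltose and maltotriose into ethanol. Oxygen is needed to make heme, sterols and unsaturated fatty acids, and a set of genes is known to be repressed when heme is plentiful and expressed when it is not. Growing yeast spends much of its transcription on building ribosomes, while slowly growing or starved yeast is known to store glycogen and trehalose and to express heat shock and antioxidant genes under the regulators Msn2 and Msn4. Each array averages a whole population, so a change in some of the cells and a smaller change in all of them cannot be told apart.

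The 6 arrays were not equally alike. Propagation 0 h A stood apart from its replicates: the SD over genes of its log2 difference was 1.17 from propagation 0 h B and 1.08 from propagation 0 h C, against 0.37 between B and C. Propagation 0 h B was unlike the rest in its hybridization control probe sets. Their mean log2 value was 4.11 on that array, against 7.33 to 9.73 on the others, and the cause was not tested. Fermentation 8 h B and C differed by an SD of only 0.123, and the labels do not say whether they came from separate RNA extractions. With them averaged to 1 sample, 104 genes passed in place of 834. None was on the lists of glycolysis, chaperone, thiol redox, histone, fatty acid, sterol synthesis, heme or citric acid cycle genes described below. The same was so for the iron, phosphate, DNA replication, vacuolar protease, autophagy, translation factor, cytosolic ribosomal protein, nitrogen and flocculation lists, and for some others. The mean log2 gap between 3′ and 5′ probe sets of 8 control genes, which widens as RNA is degraded or copied incompletely, was 3.1, 1.23 and 1.09 on fermentation 8 h A, B and C, against 4.39, 1.15 and 2.49 on propagation 0 h A, B and C. Array A had the widest gap in each group, and the groups overlapped. Counts for the gene lists are therefore given with and without propagation 0 h A, the only array whose removal raised the number of genes that passed. Removing fermentation 8 h B or C lowered it most, and those counts are not printed for every list. In either case 0 genes passed on the fatty acid (5 with all 6 arrays), vacuolar protease (4), iron (4) and DNA replication (7) lists. On the maltose and sucrose list 1 passed in place of 4.

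At 8 h of fermentation 467 genes had risen and 367 had fallen relative to propagation 0 h, by limma with a Benjamini-Hochberg adjusted p under 0.05 over all 5449 genes. Those 834 genes are 15.3% of the genes tested, 8.57% for the rises and 6.74% for the falls, and 705 of them (12.9% of the genes tested) differed at least 2-fold. In all 834 the 3 arrays of fermentation 8 h lay wholly above or wholly below those of propagation 0 h. Over all genes tested that was so for 24.4% above and 14.8% below. Where such separation is stated below for a gene that passed, it adds no support to the call. The median log2 difference over all genes, fermentation 8 h minus propagation 0 h, was 0.105. Without propagation 0 h A, 2394 genes passed (43.9%), 1242 of them higher (22.8%) and 1152 lower (21.1%) at fermentation 8 h. Without fermentation 8 h A, B or C, the numbers were 374, 108 and 110, and without propagation 0 h B or C they were 326 and 351. A call is described below as held where the gene passed in each of those 6 reduced fits, as 106 genes did, 41 of them rises and 65 falls. Every other call named below was lost in at least 1 of them, and never when propagation 0 h A was the array left out. List counts without propagation 0 h A stand against the 22.8% and 21.1% of all genes in that fit, not the 8.57% and 6.74%.

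The largest rise was that of VEL1, a gene of no known function whose expression is known to climb in zinc-depleted yeast. It read 9.26, 9.48 and 9.5 on fermentation 8 h A, B and C, against 5.14, 3.91 and 4.12 on propagation 0 h A, B and C; values of the arrays are given in the order A, B, C throughout, as deposited log2 expression values. The groups lay far apart, with a log2 difference of 5.02 ± 0.35 (SE, adjusted p = 0.00216), and the call held. At propagation 0 h the gene was not above background, taken as the 95th percentile of the probe sets for another yeast species on the same array (5.27, 4.77 and 4.63); against that level it was at least 23.0-fold higher at fermentation 8 h. CTT1, the cytosolic catalase that breaks down hydrogen peroxide, read 12.73, 12.97 and 12.91 at fermentation 8 h, against 7.63, 8.92 and 9.43 at propagation 0 h. It rose 18.6-fold (4.21 ± 0.45, adjusted p = 0.00401) and its call held too. The other large rises came from varied pathways. SIP18, which encodes a hydrophilin made under desiccation and osmotic stress, rose by 3.84 ± 0.66, and the cell wall mannoprotein gene TIR4 by 3.44 ± 0.51. ENO2, encoding the enolase of glycolysis, rose by 3.33 ± 0.72. ARO9, for the aminotransferase that starts the breakdown of aromatic amino acids to fusel alcohols, rose by 3.27 ± 0.24. The alcohol dehydrogenase gene ADH4 rose by 3.23 ± 0.51, the wall mannoprotein genes TIP1 and TIR1 by 2.94 ± 0.57 and 2.86 ± 0.34, and IZH4, a membrane protein gene linked to zinc, by 2.91 ± 0.46. Their adjusted p-values lay between 0.0022 for ARO9 and 0.0267 for ENO2, and of these 8 the calls of ARO9 and TIR1 held.

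The largest falls were those of genes for ribosome assembly, a glucose transporter, a gluconeogenic enzyme and a purine enzyme. CGR1, needed to process the RNA of the large ribosomal subunit, read 6.33, 6.24 and 6.06 at fermentation 8 h, against 9.13, 10.45 and 9.78 at propagation 0 h (-3.58 ± 0.35, adjusted p = 0.00374), so that it was 11.9-fold lower. HXT1, the low-affinity glucose transporter that yeast uses when glucose is abundant, read 7.15, 7.16 and 7.06, against 9.7, 11.15 and 11.24 at propagation 0 h, and fell by 3.57 ± 0.42 on the log2 scale (adjusted p = 0.00475). AAH1, the adenine deaminase of purine salvage, stood at 7.62, 7.61 and 7.79, against 11.7 and 11.81 on propagation 0 h B and C and 10.23 on propagation 0 h A (-3.57 ± 0.43, adjusted p = 0.0051). PCK1, the phosphoenolpyruvate carboxykinase of gluconeogenesis, stood at 6.66, 6.61 and 6.53, against 9.21, 10.34 and 10.86 (-3.54 ± 0.42, adjusted p = 0.00475). In each of these genes the lowest propagation array, A, was still more than 2 log2 units above every fermentation array. The other 6 of the 10 largest falls, ALB1, ARX1, UTP4, UTP21, SSF1 and RPF2, act in assembling ribosomal subunits and fell by 3.16 to 3.38. Of the 10, only the call of ALB1 did not hold.

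**Figure D1:**
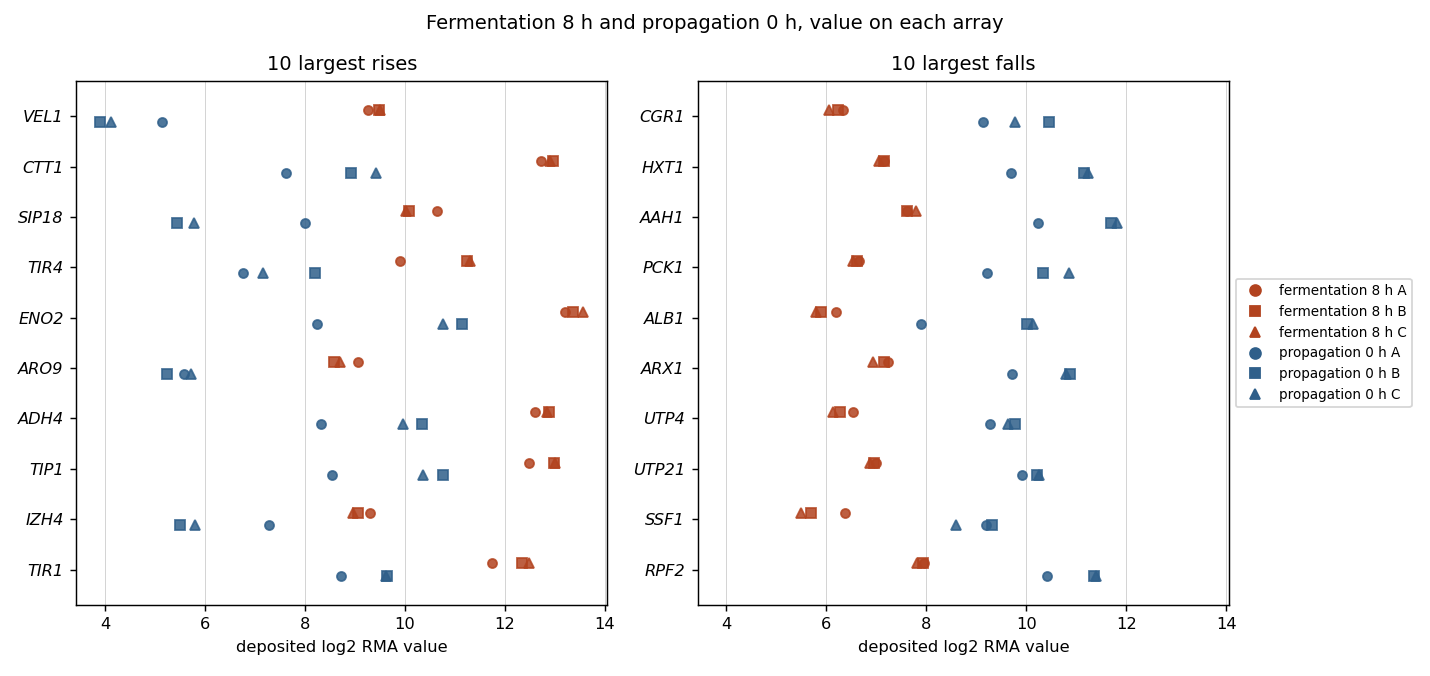
Deposited log2 expression value (x axis) of the 10 genes with the largest rise and the 10 with the largest fall, 1 point per array; red points are the 3 fermentation 8 h arrays and blue points the 3 propagation 0 h arrays, with the shape giving the replicate letter. No gene has overlapping groups, and propagation 0 h A is the blue point nearest to the red ones in most of the falls and the farthest from them in rises such as CTT1 (7.63) and ENO2 (8.25).

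Of 79 listed genes of ribosome biogenesis, 45 fell and none rose (57% against 6.74% of all genes tested), and all 79 log2 differences were negative, with a median of -2.04 and a range of -3.35 to -0.93. The list's median level was 7.52, 7.57 and 7.53 on the fermentation 8 h arrays, against 8.38, 10.18 and 10.16 on those of propagation 0 h. Propagation 0 h A thus lay between the fermentation arrays and its own replicates, yet above every fermentation array. When it was left out, all 79 passed as lower. Without fermentation 8 h A, B or C 27, 17 and 17 passed, and without propagation 0 h B or C 27 and 26, and the calls of 17 genes held.

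Among them, UTP4, UTP6 and UTP21 encode parts of the small-subunit processome, the complex that cuts and folds the precursor of the small-subunit RNA. UTP21 read 7, 6.96 and 6.87 at fermentation 8 h, against 9.92, 10.22 and 10.25 at propagation 0 h (-3.19 ± 0.21, adjusted p = 0.00216). UTP6 read 5.58, 5.41 and 5.27, against 8.52, 8.47 and 8.63 (-3.12 ± 0.2, adjusted p = 0.00216). In UTP6 propagation 0 h A did not stand apart from B and C. On the large-subunit side, ARX1, a shuttling factor that goes out to the cytoplasm with the new subunit, read 7.23, 7.15 and 6.94, against 9.71, 10.87 and 10.79 (-3.35 ± 0.35, adjusted p = 0.00393). SSF1, needed for large-subunit maturation, read 6.37, 5.7 and 5.5, against 9.19, 9.31 and 8.59 (-3.17 ± 0.32, adjusted p = 0.0038). The calls of UTP4, UTP6, UTP21, ARX1 and SSF1 held. DBP2, an RNA helicase, fell by 3.08 ± 0.69 (adjusted p = 0.0295), with a wider error that goes with 8.88 on propagation 0 h A against 11.43 and 11.48 on its replicates.

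Of 21 subunit genes of RNA polymerases I and III, which transcribe ribosomal and transfer RNA, 9 fell and none rose (42.9%; median -1.44), and 20 passed as lower without propagation 0 h A. RPA12, a subunit of polymerase I, read 5.47, 5.36 and 5.11, against 7.36, 8.75 and 8.39 (-2.86 ± 0.38, adjusted p = 0.00664). RPC19, a subunit common to both enzymes, read 7.86, 7.84 and 7.62, against 9.89, 10.91 and 10.75 (-2.74 ± 0.31, adjusted p = 0.00439). Both calls held. RPA49 did not pass (adjusted p = 0.0987): propagation 0 h A, at 6.72, lay close to the fermentation values of 6.17, 6.63 and 6.38, while propagation 0 h B and C stood at 10.2 and 10.4. With the replicate letter as a block its adjusted p was 0.0424.

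Genes for the ribosomal proteins themselves gave few calls. Of 128 genes for cytosolic ribosomal proteins 6 fell (4.69%, below the 6.74% of all genes) and none rose, with a median of -0.27. The largest of these falls was that of RPL22B, the minor gene copy of a large-subunit protein (8.66, 8.29 and 8.04, against 10.23, 9.86 and 9.8; -1.63 ± 0.25, adjusted p = 0.0108). Without propagation 0 h A 56 of the 128 passed as lower, and without any other array at most 1 did. Of 31 translation initiation, elongation and release factor genes 4 fell and none rose (12.9%; median -0.66), among them SUP45, the release factor that recognises stop codons, by 1.53 ± 0.33 (adjusted p = 0.0275), and TIF11, an initiation factor, by 1.43 ± 0.26 (adjusted p = 0.0152). Setting propagation 0 h A aside, 26 of the 31 passed as lower, and without any other array none did. Genes for mitochondrial ribosomal proteins, made for a separate ribosome, gave 1 rise and no fall among 70 (median 0.23), namely RSM7 at 0.9 ± 0.21 (adjusted p = 0.0316), and 9 passed as higher and 2 as lower without propagation 0 h A.

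**Figure D2:**
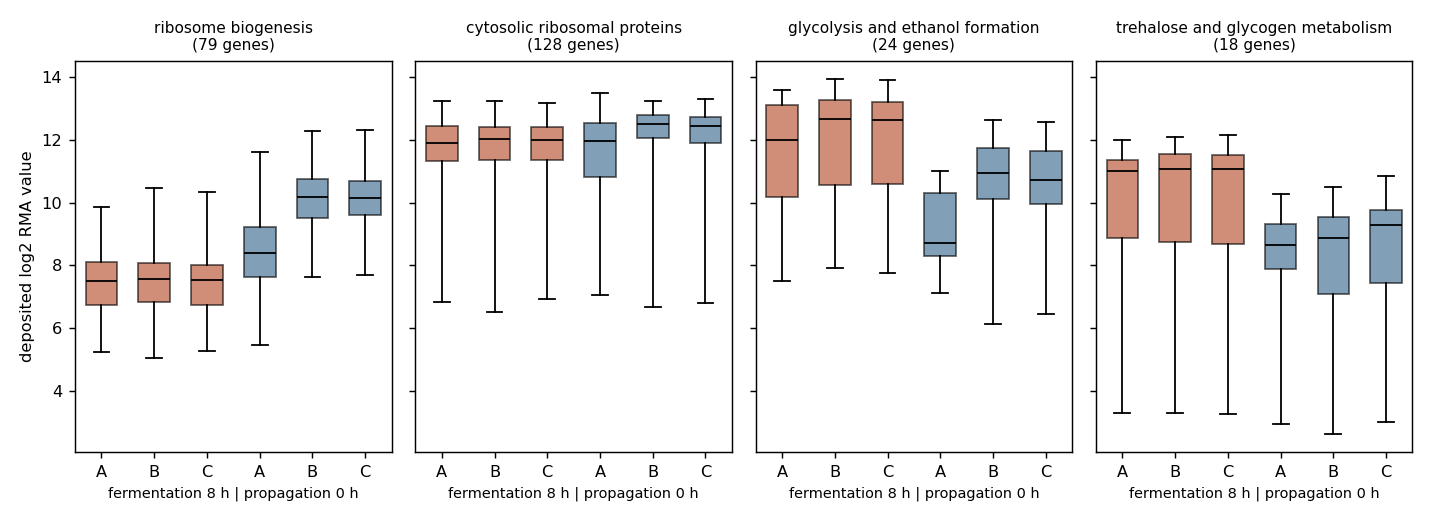
Deposited log2 expression values (y axis) of the members of 4 gene lists on each array, red for fermentation 8 h A, B and C and blue for propagation 0 h A, B and C; boxes span the quartiles, the line is the median and whiskers run to the lowest and highest member. The ribosome biogenesis medians are 7.52 to 7.57 on the fermentation arrays and 8.38 to 10.18 on the propagation arrays, the glycolysis medians 12 to 12.65 and 8.72 to 10.95.

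Several yeast proteins come as a pair of genes, of which 1 copy is known to be favoured with oxygen and the other without. Of 7 listed hypoxic copies 5 rose and none fell (71.4% against 8.57% of all genes tested), with a median log2 difference of 1.53. None of their 7 aerobic partners passed (median 0.16). ANB1, the hypoxic copy of translation factor eIF5A, read 10.46, 10.44 and 10.29 at fermentation 8 h, against 7.27, 8.02 and 7.69 at propagation 0 h. It rose 6.66-fold (2.74 ± 0.25, adjusted p = 0.00343), while its aerobic partner HYP2 stood at 11.91, 12.16 and 12.11, against 10.68, 12.37 and 12.21 (0.31 ± 0.45, adjusted p = 0.704). COX5B, the hypoxic copy of a cytochrome c oxidase subunit, read 11.15, 10.88 and 10.81, against 9.13, 8.51 and 8.78, and rose 4.4-fold (2.14 ± 0.24, adjusted p = 0.00439). Its partner COX5A stood at 9.85, 11.11 and 11.24, against 9.03, 11.45 and 11.23, and the groups overlapped (0.16 ± 0.7, adjusted p = 0.905). The calls of ANB1 and COX5B held.

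A further 3 hypoxic copies rose with calls that did not hold. HMG2, for a form of HMG-CoA reductase in sterol synthesis, read 8.35, 9.13 and 9.05, against 5.3, 7.31 and 7.08 (2.28 ± 0.55, adjusted p = 0.0375). AAC3, an ADP/ATP carrier of mitochondria, read 7.76, 7.9 and 7.85, against 6.91, 5.94 and 6.44 (1.41 ± 0.28, adjusted p = 0.0217). CYC7, the second cytochrome c, read 11.59, 11.32 and 11.39, against 10.82, 9.54 and 9.74 (1.4 ± 0.36, adjusted p = 0.0447). All fermentation arrays exceeded all propagation arrays in these 3 genes. Their aerobic partners HMG1 (1.79 ± 0.62, adjusted p = 0.103), PET9 (0.44 ± 0.55, adjusted p = 0.647) and CYC1 (-0.23 ± 0.37, adjusted p = 0.732) did not pass, though with the replicate letter as a block HMG1 had an adjusted p of 0.0394. Without propagation 0 h A the same number of hypoxic copies passed, 5, and of the aerobic ones 1 passed as higher and 2 as lower. CYC1 was then lower, with an adjusted p of 0.0149. The other listed pairs, ACS2 with ACS1 and OYE3 with OYE2, are less firmly tied to oxygen, and neither ACS2 (1.53 ± 0.66, adjusted p = 0.171; 0.0456 with the block) nor OYE3 (-0.19 ± 0.21, adjusted p = 0.601) passed. The difference between partners was not tested in its own right.

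**Figure D3:**
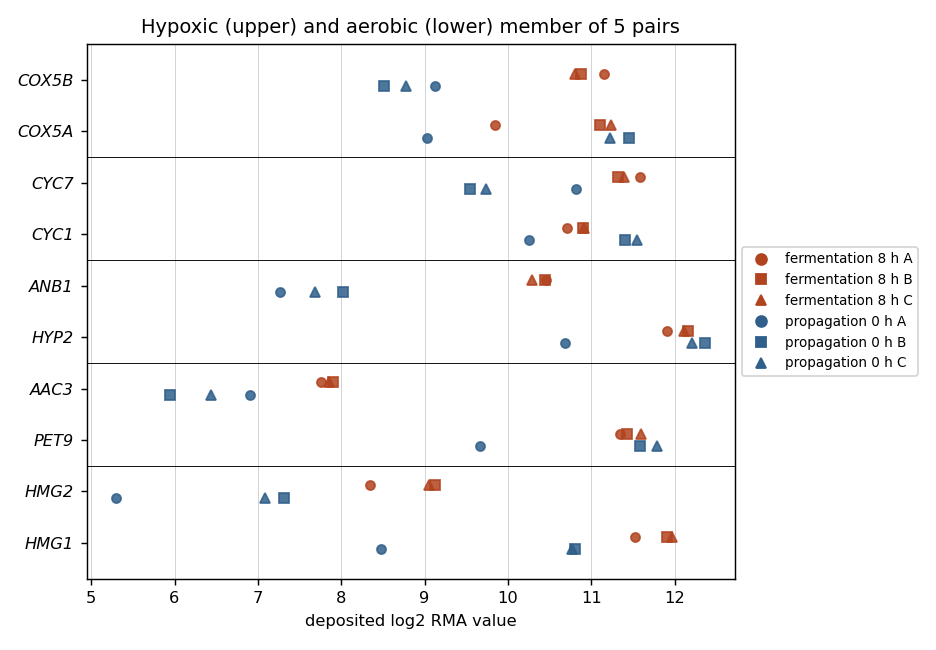
Deposited log2 expression value (x axis) of 5 gene pairs on each array, the hypoxic copy above its aerobic partner; red points are fermentation 8 h and blue points propagation 0 h, with the shape giving the replicate letter. The hypoxic copies do not overlap between groups, as in ANB1 at 10.29 to 10.46 and 7.27 to 8.02, whereas all aerobic copies but HMG1 do.

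Among 8 anaerobic cell wall mannoprotein genes, which replace the aerobic wall proteins when oxygen is gone, 3 rose and none fell (37.5%; median 1.22), and 4 passed as higher without propagation 0 h A. TIR4 read 9.91, 11.24 and 11.3, against 6.77, 8.2 and 7.17 (3.44 ± 0.51, adjusted p = 0.00906). TIR1 read 11.75, 12.34 and 12.48, against 8.72, 9.65 and 9.62 (2.86 ± 0.34, adjusted p = 0.00495), and its call held. TIR2 read 7.08, 8.61 and 8.71, against 6.22, 6.26 and 6.08 (1.95 ± 0.45, adjusted p = 0.0322). Fermentation 8 h A was the lowest of its group in all 3, and each still exceeded every propagation array. TIR3, at 8.21, 9.95 and 9.91, against 5.87, 8.88 and 8.26, overlapped and did not pass (adjusted p = 0.225; 0.0193 with the replicate letter as a block). DAN1, one of the most tightly oxygen-repressed of these genes, was low on every array, at 5.5, 6.13 and 6.39, against 4.83, 5.58 and 5.34 (0.76 ± 0.32, adjusted p = 0.164). DAN4 (-0.19 ± 0.21), PAU23 (0.07 ± 0.26) and PAU24 (0.7 ± 0.2) did not pass either. None of 13 genes of the related PAU family, PAU23 and PAU24 again among them, passed, although all 13 differences were positive. The median was 0.46, and 3 passed as higher without propagation 0 h A. Of the 13, 10 are read by probe sets that the array design shares among near-identical copies, so single members cannot be separated.

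A list of 9 genes for sterol uptake, fumarate reduction and other functions used without oxygen gave 1 call with all arrays, and 3 rises and 1 fall without propagation 0 h A. The call was not for a sterol uptake gene but for FRD1, a fumarate reductase used without oxygen, at 6.02, 5.93 and 6.07, against 4.28, 4.21 and 5.08 (1.49 ± 0.29, adjusted p = 0.0186). The sterol importer genes AUS1 and PDR11 did not pass (adjusted p = 0.528 and 0.831). Of 26 sterol synthesis genes 3 rose, HMG2, ERG24 and ERG28, and none fell (11.5%, near the 8.57% of all genes; median 0.7), and 7 passed as higher and 2 as lower without propagation 0 h A. ERG11, the oxygen-dependent demethylase of the pathway, stood at 12.43, 12.81 and 12.82, against 9.54, 12.61 and 12.47, so its difference of 1.15 ± 0.79 rested on propagation 0 h A (adjusted p = 0.378, and 0.535 without that array).

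Of 14 genes of fatty acid synthesis 5 rose and none fell (35.7%; median 0.94). ACC1, acetyl-CoA carboxylase, which makes the building block of fatty acids, read 12.11, 12.24 and 12.25, against 9.01, 10.26 and 10.04 (2.43 ± 0.35, adjusted p = 0.00838). FAS2 and FAS1, the subunits of fatty acid synthase, rose by 2.46 ± 0.42 (adjusted p = 0.0129) and 1.4 ± 0.32 (adjusted p = 0.0316). ELO1, an elongase, rose by 1.54 ± 0.35 (adjusted p = 0.0322). The fermentation arrays exceeded all propagation arrays in these 4 genes, but none of the calls held. OLE1, the desaturase that needs oxygen to make unsaturated fatty acids, read 11.04, 12.54 and 12.4, against 8.9, 11.58 and 11.32, and the groups overlapped (1.39 ± 0.77, adjusted p = 0.266, and 0.0323 with the replicate letter as a block). With propagation 0 h A left out, 7 of the 14 passed as higher and 2 as lower.

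Of 9 heme synthesis and breakdown genes 2 rose, HEM15 by 1.67 ± 0.27 (adjusted p = 0.011) and HEM14 by 1.44 ± 0.29 (adjusted p = 0.0209), which encode the last enzymes of the pathway; 4 passed as higher and 2 as lower without propagation 0 h A. HEM13, the oxygen-requiring step that is known to be repressed by heme, read 8.66, 9.44 and 9.32, against 6.96, 8.37 and 8.53 (1.18 ± 0.46, adjusted p = 0.134; 0.0338 with the replicate letter as a block). Another list held 15 genes of heme and oxygen response, all regulators but HEM13, which is on both lists. Of these, 3 rose and none fell (20%, median 0.73), against 7 and 1 without propagation 0 h A. MGA2, the membrane-bound activator of OLE1, was one of them, at 8.58, 8.4 and 8.16, against 5.86, 6.69 and 7.16 (1.81 ± 0.36, adjusted p = 0.0202). MOT3, a repressor of anaerobic genes, was another, at 9.66, 9.73 and 9.69, against 8.52, 8.92 and 8.67 (0.99 ± 0.21, adjusted p = 0.0238).

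Of 24 genes of glycolysis and ethanol formation 12 passed as higher, 12 did not pass and none passed as lower (50% higher against 8.57% of all genes tested; median 1.62). The list's median was 12, 12.65 and 12.63 on the fermentation 8 h arrays, against 8.72, 10.95 and 10.7 on propagation 0 h. Propagation 0 h A was the lowest by about 2 log2 units; leaving it out brought more calls, 16 as higher and 2 as lower. None of the 12 calls held; without fermentation 8 h B or C no gene of the list passed. ENO2 read 13.2, 13.36 and 13.57, against 8.25, 11.14 and 10.76 (3.33 ± 0.72, adjusted p = 0.0267), and every fermentation array exceeded every propagation array. GPM1, phosphoglycerate mutase, read 13.58, 13.76 and 13.78, against 9.63, 11.74 and 11.46 (2.77 ± 0.54, adjusted p = 0.0198). PGK1, phosphoglycerate kinase, rose by 2.72 ± 0.62 (adjusted p = 0.0315). TDH3, the main glyceraldehyde phosphate dehydrogenase gene, at 13.55, 13.94 and 13.89, against 8.05, 11.97 and 11.86, did not pass with all 6 arrays (3.17 ± 1, adjusted p = 0.0801; 0.0348 with the replicate letter as a block).

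Few hexose uptake genes passed, and they went both ways. Of 16 hexose transporter and glucose sensor genes 2 fell, HXT1 and HXT3, and 2 rose, HXT13 and SNF3 (median 0.03). That is 12.5% each way, against 6.74% and 8.57% of all genes tested. Without propagation 0 h A 4 passed each way, a share near the 21.1% lower and 22.8% higher of all genes. HXT3, like HXT1 a low-affinity transporter, read 7.92, 8.3 and 8.33, against 9, 11.05 and 11.1 (-2.2 ± 0.57, adjusted p = 0.0447). The call of HXT1 held and that of HXT3 did not. SNF3, the sensor of low glucose, rose by 0.79 ± 0.2 (adjusted p = 0.0413; 0.056 with the replicate letter as a block). HXT13, which was not above background at propagation 0 h (5.51, 5.36 and 5.01, against 4.47, 4.57 and 4.21), passed as at least 1.32-fold higher (adjusted p = 0.0483).

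Of 9 genes for maltose and sucrose use 4 rose and none fell (44.4%; median 0.73). IMA1, an isomaltase, read 11.64, 11.73 and 11.62, against 9.83, 9.28 and 9.84 (2.01 ± 0.23, adjusted p = 0.00475), and its call held. MAL31, a maltose permease, read 11.75, 12.3 and 12.35, against 9.62, 10.44 and 10.64 (1.9 ± 0.34, adjusted p = 0.0144). SUC2, invertase, which splits sucrose outside the cell and is repressed by glucose, read 12.33, 12.12 and 12.18, against 9.8, 10.84 and 11.17 (1.61 ± 0.37, adjusted p = 0.0318). All 3 genes had every fermentation array above every propagation array. MAL32, a maltase, rose by 0.95 ± 0.22 (adjusted p = 0.0319) on a probe set shared with a near-identical copy. As many as 6 of the 9 passed as higher without propagation 0 h A.

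The genes of gluconeogenesis and of growth on other carbon sources split. Of 20, 3 rose and 2 fell (15% and 10%, against 8.57% and 6.74% of all genes tested), with a median of 0.49. With the replicate letter as a block 5 rose and 3 fell, and without propagation 0 h A 6 and 3. The falls were PCK1, whose call held, and SFC1, a mitochondrial succinate-fumarate carrier used on acetate and ethanol, at 4.89, 4.73 and 4.84, against 6.27, 7.65 and 7.38 (-2.29 ± 0.37, adjusted p = 0.0114). The fermentation values of SFC1 lay near the background level of 4.65 to 4.73. The rises were CAT8, the activator of gluconeogenic genes, at 10.04, 10.06 and 10.08, against 8.82, 8.23 and 8.16 (1.66 ± 0.25, adjusted p = 0.009), the carnitine acetyltransferase gene CAT2 (1.76 ± 0.28, adjusted p = 0.011) and ADR1, an activator of genes repressed by glucose, with a difference of 1.47. CAT8 and PCK1, a regulator and its known target, thus changed in opposite directions.

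Peroxisomal fatty acid oxidation, a pathway shut off by glucose, gave 6 rises and no fall among 14 genes (42.9%; median 1), and 9 rises without propagation 0 h A. POX1, acyl-CoA oxidase, its first enzyme, read 10.04, 9.68 and 9.73, against 6.76, 7.69 and 7.82 (2.39 ± 0.33, adjusted p = 0.00722), and its call held. POT1, the thiolase of its last step, rose by 1.45 ± 0.27 (adjusted p = 0.0175). The genes PXA1 and PXA2, whose products import the fatty acids into the peroxisome, rose by 1.59 ± 0.38 (adjusted p = 0.0367) and 1.44 ± 0.31 (adjusted p = 0.0271).

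The citric acid and glyoxylate cycles gave 3 rises and no fall among 24 genes (IDH2, IDP3 and LPD1; 12.5%; median 0.91), but 9 rises and 2 falls with the replicate letter as a block and 14 rises and 3 falls without propagation 0 h A. The citrate synthase gene CIT1 read 11.53, 11.82 and 11.81, against 9.33, 10.61 and 11.01. Its groups did not overlap, with a difference of 1.4 ± 0.43 (adjusted p = 0.0748; 0.0363 with the block). IDP2, the cytosolic isocitrate dehydrogenase, ran the other way, at 9.76, 9.29 and 9.29, against 11.56, 10.29 and 10.32 (-1.28 ± 0.39, adjusted p = 0.0706; 0.0274 with the block). Among 35 genes of the respiratory chain and ATP synthase, NDE2, an external NADH dehydrogenase, rose by 1.17 ± 0.28 (adjusted p = 0.0357) and none fell; the median was 0.17, close to the 0.105 of all genes. Without propagation 0 h A 2 passed as higher and 4 as lower, shares below the 22.8% and 21.1% of all genes. In the pentose phosphate pathway 4 of 11 genes rose and 1 fell (6 and 2 without propagation 0 h A): the transketolase gene TKL2, a copy expressed under stress and glucose limitation, rose by 2.57 ± 0.2 (7.93, 8.16 and 8.16, against 5.47, 5.43 and 5.67, adjusted p = 0.00254), with a call that held, and RKI1, ribose phosphate isomerase, fell by 2.15 ± 0.55 (adjusted p = 0.0443).

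**Figure D4:**
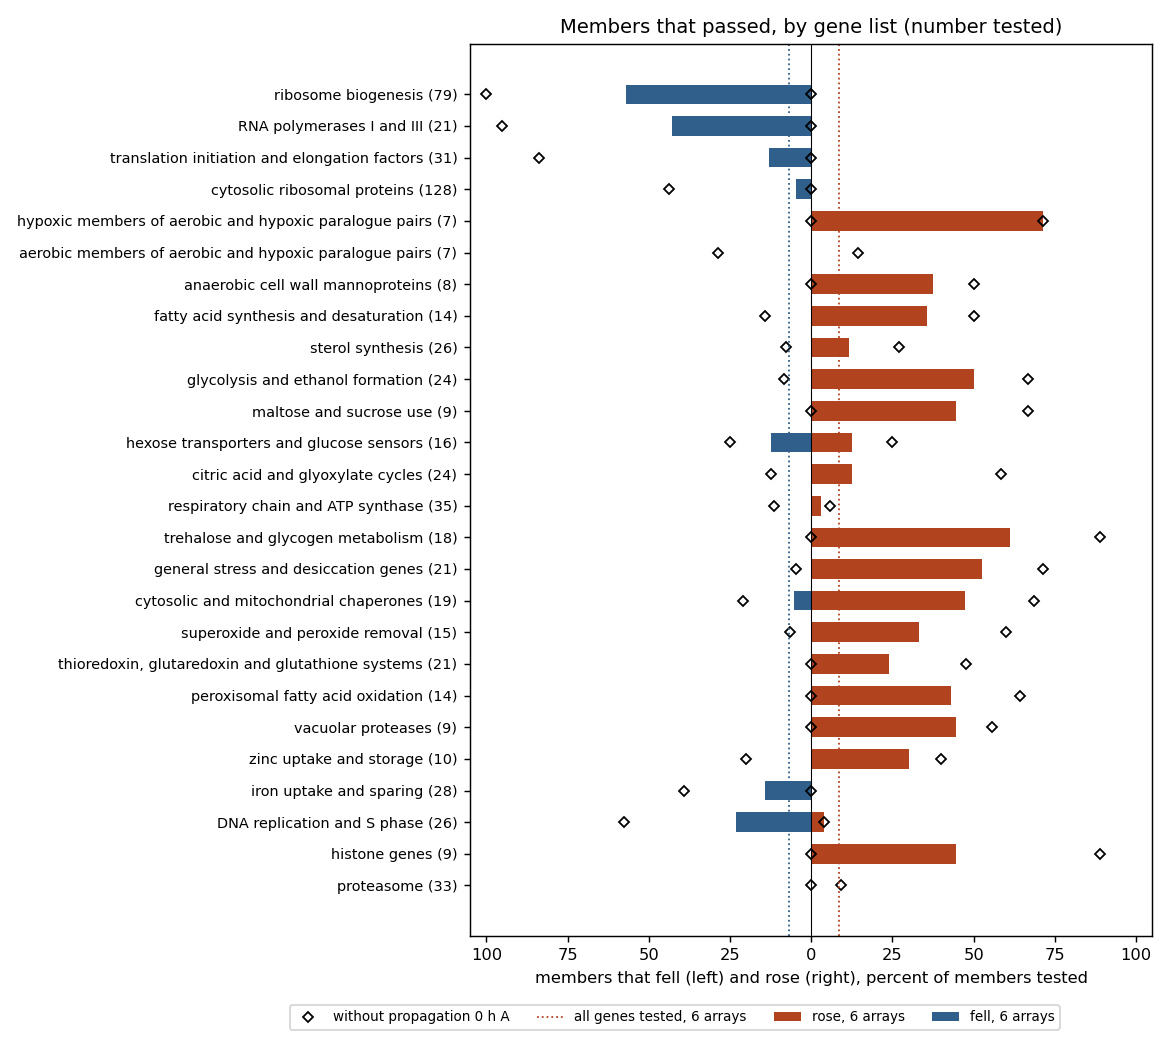
Share of the members of 26 gene lists that passed as higher (red bars, to the right) and lower (blue bars, to the left) at fermentation 8 h, in percent of the members tested; numbers in brackets are the members tested, open diamonds the shares without propagation 0 h A, and dotted lines the 8.57% and 6.74% of all genes tested on 6 arrays. The diamonds stand against the 22.8% (higher) and 21.1% (lower) of all genes without propagation 0 h A, for which no line is drawn. Ribosome biogenesis extends to 57% on the left, and hypoxic paralogues and trehalose and glycogen genes to 71.4% and 61.1% on the right.

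Of 18 genes of trehalose and glycogen metabolism 11 rose, 7 did not pass and none fell (61.1% against 8.57% of all genes tested), all 18 differences were positive, and the median was 1.39. The list's median was 11.01, 11.07 and 11.06 on the fermentation arrays, against 8.66, 8.88 and 9.3 on the propagation arrays, where A stood close to its replicates. GSY1 and GSY2, the glycogen synthases, read 11.25, 11.49 and 11.44, against 8.5, 8.95 and 9.19 (2.51 ± 0.25, adjusted p = 0.00375), and 11.15, 11.12 and 11.04, against 8.81, 9.09 and 9.5 (1.97 ± 0.24, adjusted p = 0.00519). TSL1, the large subunit of the trehalose synthase complex, read 11.67, 11.55 and 11.55, against 9.37, 9.4 and 9.75 (2.08 ± 0.21, adjusted p = 0.0038). These 3 calls held. PGM2, phosphoglucomutase, which leads glucose phosphate into both stores, rose by 2.65 ± 0.41 (adjusted p = 0.0104), UGP1, the enzyme that makes UDP-glucose, by 1.94 ± 0.43 (adjusted p = 0.0279) and TPS2, trehalose phosphatase, by 1.95 ± 0.38 (adjusted p = 0.0193). Leaving out propagation 0 h A raised the count to 16 of 18; without fermentation 8 h A, B or C it was 5, 3 and 3, and without propagation 0 h B or C 5 and 7.

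The general stress list, a set of genes known to be driven by Msn2 and Msn4 or by drying, gave 11 rises and no fall among 21 (52.4%; median 1.31), or 15 rises and 1 fall without propagation 0 h A, and shares some members with the storage carbohydrate list. HSP12, a small membrane protein made under nearly every stress, read 13.18, 13.06 and 13.06, against 11.65, 10.98 and 11.34 (1.78 ± 0.24, adjusted p = 0.00704). HSP42, a small heat shock chaperone, read 12, 11.76 and 11.75, against 9.02, 9.47 and 9.71 (2.44 ± 0.25, adjusted p = 0.00391), and its call held. SIP18 read 10.65, 10.08 and 10.02, against 8, 5.45 and 5.78 (3.84 ± 0.66, adjusted p = 0.0132). Here propagation 0 h A was the highest of its group and nearest to fermentation, the reverse of its place in HSP42. ALD3, a cytosolic aldehyde dehydrogenase, rose by 2.49 ± 0.58 (adjusted p = 0.0342). Of 9 regulators of stress genes only GIS1, which acts after glucose runs out, rose (1.06 ± 0.21, adjusted p = 0.0209), and 2 passed as higher and 1 as lower without propagation 0 h A. MSN2 stood at 8.06, 8.79 and 8.81, against 7.05, 8.59 and 8.11, and MSN4 at 7.68, 8.69 and 8.61, against 6.97, 8.22 and 8.75; both overlapped (adjusted p = 0.376 and 0.702), and YAP1, the activator of antioxidant genes, did as well (0.44 ± 0.42, adjusted p = 0.536).

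Of 19 chaperone genes, cytosolic and mitochondrial, 9 rose and 1 fell (47.4% and 5.26%; median 1.06). HSP104, the disaggregase that pulls apart clumped proteins, read 11.17, 11.14 and 10.99, against 7.71, 8.86 and 9.22 (2.5 ± 0.4, adjusted p = 0.0109). The 4 SSA genes of the Hsp70 family all rose: the stress-induced SSA3 and SSA4 by 2.09 ± 0.32 (adjusted p = 0.0108) and 1.42 ± 0.23 (adjusted p = 0.0109), and SSA1 and SSA2, which are expressed in growing cells as well, by 1.95 ± 0.3 (adjusted p = 0.0104) and 1.61 ± 0.27 (adjusted p = 0.0129). All 4 had every fermentation array above every propagation array. No chaperone call held: without fermentation 8 h B or C none of the 19 passed, and without propagation 0 h A 13 passed as higher and 4 as lower.

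The series is about oxidative stress, and some of its antioxidant genes passed while others did not. Of 15 genes for removing superoxide and peroxide 5 rose and none fell (33.3%, against 8.57% and 6.74% of all genes tested), with a median of 1.2. Of their differences 13 were positive and 2 negative. In 11 of the 15 genes every fermentation array exceeded every propagation array, a larger share than the 24.4% of all genes. In 1 the reverse held. With the replicate letter as a block 8 rose, and without propagation 0 h A 9 rose and 1 fell. Both catalases rose. The peroxisomal catalase gene CTA1 read 9.17, 9.21 and 9.21, against 7.06, 7.91 and 8.22 (1.47 ± 0.32, adjusted p = 0.0281), a smaller difference than the 4.21 of CTT1. PRX1, the mitochondrial peroxiredoxin, rose by 1.64 ± 0.3 (adjusted p = 0.0151) and AHP1, a thioredoxin peroxidase, by 1.39 ± 0.21 (adjusted p = 0.0102). Only the call of CTT1 held.

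The superoxide dismutases did not pass. SOD1, the cytosolic copper and zinc enzyme, read 10.76, 11.05 and 11.06, against 9.7, 11.26 and 11.25. Fermentation values lay between propagation 0 h A and its replicates (0.22 ± 0.44, adjusted p = 0.785). SOD2, the mitochondrial manganese enzyme, read 10.17, 10.89 and 10.94, against 7.95, 9.9 and 9.55 (1.54 ± 0.53, adjusted p = 0.0987). Its groups did not overlap, and it passed with the replicate letter as a block (adjusted p = 0.0241) and without propagation 0 h A (adjusted p = 0.029). TSA1, the main cytosolic peroxiredoxin, stood at 13.06, 12.94 and 12.97, against 11.86, 12.61 and 12.28, without overlap (0.74 ± 0.25, adjusted p = 0.0938).

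Of 21 genes of the thioredoxin, glutaredoxin and glutathione systems 5 rose and none fell (23.8%; median 0.63), and 10 passed as higher without propagation 0 h A. Without fermentation 8 h A, B or C none did. Of the 21 differences 17 were positive and 4 negative. In 12 of the 21 genes every fermentation array exceeded every propagation array, a larger share than the 24.4% of all genes tested. The rises named by size were GTT1, a glutathione transferase (1.37 ± 0.33, adjusted p = 0.0361), MXR2 and TRR2, a methionine sulphoxide reductase and thioredoxin reductase of mitochondria (1.25 ± 0.22 and 1.24 ± 0.25, adjusted p = 0.0137 and 0.0209), and GSH2, glutathione synthase (1.02 ± 0.26, adjusted p = 0.0431). GSH1, the first enzyme of glutathione synthesis, read 9.18, 9.08 and 9.09, against 6.17, 8.48 and 8.72 (1.32 ± 0.65, adjusted p = 0.215). TRX2, the cytosolic thioredoxin induced by oxidants, stood at 12.14, 11.73 and 11.82, against 11.73, 11.65 and 11.49, and its reductase TRR1 at 10.33, 10.44 and 10.37, against 10.14, 10.81 and 10.72. Neither passed (0.27 ± 0.22 and -0.18 ± 0.25, adjusted p = 0.447 and 0.688), nor did GLR1, glutathione reductase (0.57 ± 0.42, adjusted p = 0.405). The 95% intervals of the log2 difference ran from -0.24 to 0.78 for TRX2 and from -0.76 to 0.41 for TRR1.

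**Figure D5:**
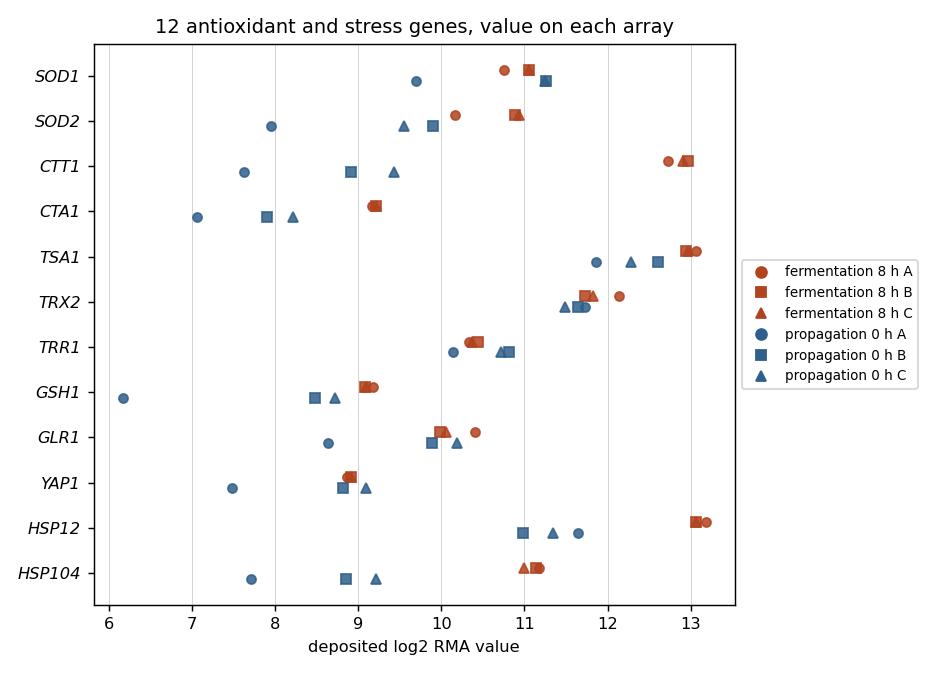
Deposited log2 expression value (x axis) of 12 antioxidant and stress genes on each array, red for fermentation 8 h and blue for propagation 0 h, with the shape giving the replicate letter. CTT1, CTA1, HSP12 and HSP104 passed the test, with groups apart, while SOD1, TRX2, TRR1, GLR1 and YAP1 overlap between groups.

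Amino acid and flavour metabolism changed gene by gene. Of 13 genes of ester formation and the Ehrlich pathway, by which yeast turns amino acids into fusel alcohols, 3 rose and none fell (23.1%; median 0.35), and 5 rose and 3 fell without propagation 0 h A. ARO9 read 9.07, 8.59 and 8.7, against 5.59, 5.25 and 5.72, with little spread in either group. ARO10, the decarboxylase of the next step, read 7.03, 6.81 and 6.75, against 6.28, 5 and 5.13 (1.39 ± 0.37, adjusted p = 0.0479). ATF1, the alcohol acetyltransferase that makes acetate esters such as isoamyl acetate, read 8.85, 8.83 and 8.81, against 7.59, 7.56 and 7.72 (1.2 ± 0.19, adjusted p = 0.0109). Only the call of ARO9 held. None of 12 branched-chain amino acid genes passed (median -0.03), while 7 passed as lower without propagation 0 h A.

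Of 48 other amino acid synthesis genes 5 rose and 4 fell (median -0.12). Their shares, 10.4% and 8.33%, were near the 8.57% and 6.74% of all genes tested. With the replicate letter as a block 7 rose and 7 fell, and without propagation 0 h A 11 and 24. HIS4 of histidine synthesis rose by 2.64 ± 0.43 (adjusted p = 0.0109), and ARG4, the last enzyme of arginine synthesis, by 2.02 ± 0.34 (adjusted p = 0.013). LYS20, homocitrate synthase at the head of lysine synthesis, read 9.04, 9.02 and 8.71, against 10.59, 10.93 and 10.73, and fell by 1.83 ± 0.22 (adjusted p = 0.00475), with a call that held. ARG3, ornithine carbamoyltransferase, fell by 1.46 ± 0.25 (adjusted p = 0.0133), so 2 genes of arginine synthesis moved apart.

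Sulphur assimilation, which supplies methionine and the sulphite of beer, gave 6 rises and 1 fall among 29 genes (20.7% and 3.45%; median 0.37), but 8 rises and 6 falls without propagation 0 h A. MET5, a sulphite reductase subunit, read 8.4, 8.32 and 8.13, against 6.13, 6.1 and 6.63 (2 ± 0.24, adjusted p = 0.00475), and its call held. MET3, ATP sulphurylase, the first enzyme, rose by 1.27 ± 0.2 (adjusted p = 0.0109), MET17, which fixes sulphide into homocysteine, by 1.47 ± 0.2 (adjusted p = 0.00719) and SAM2, S-adenosylmethionine synthetase, by 2.26 ± 0.47 (adjusted p = 0.0235). In nitrogen uptake and breakdown, 2 of 33 genes rose, 6.06% and so below the 8.57% of all genes, while 7 rose and 2 fell with the block, and 6 rose and 9 fell without propagation 0 h A. The rises with all arrays were those of UGA1, which breaks down GABA (1.82 ± 0.38, adjusted p = 0.024), and PUT2 of proline breakdown (1.55 ± 0.41, adjusted p = 0.0481).

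Purine synthesis gave 5 rises and 1 fall among 19 genes (26.3% and 5.26%; median 0.97), and 7 rises and 5 falls without propagation 0 h A. ADE3, a one-carbon enzyme that feeds the ring, read 10.79, 11.2 and 11.14, against 8.48, 9.28 and 9.31 (2.02 ± 0.3, adjusted p = 0.00873). ADE17, ADE1 and ADE2 of the pathway to IMP rose by 1.32 ± 0.2 (adjusted p = 0.0108), 1.39 ± 0.25 (adjusted p = 0.0155) and 1.69 ± 0.45 (adjusted p = 0.0497). GUA1, which makes GMP in the guanine branch, fell by 1.83 ± 0.2, at 10.57, 10.28 and 10.24, against 12.16, 12.18 and 12.25 (adjusted p = 0.00429). The call of GUA1 held, as did that of AAH1 above.

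Of 10 genes of zinc uptake, storage and response 3 rose and none fell (30%; median 0.97), 7 differences were positive and 3 negative, and 4 passed as higher and 2 as lower without propagation 0 h A. ADH4, a zinc-responsive alcohol dehydrogenase, read 12.61, 12.89 and 12.84, against 8.33, 10.34 and 9.97 (3.23 ± 0.51, adjusted p = 0.0109). ZPS1, a wall protein gene under the zinc regulator Zap1, read 11.25, 11.36 and 11.38, against 8.69, 9.23 and 9.31 (2.25 ± 0.24, adjusted p = 0.00393), and its call held. IZH2, a membrane protein gene linked to zinc, rose by 1.96 ± 0.29 (adjusted p = 0.00873). ZAP1 itself stood at 7.72, 7.93 and 7.92, against 4.57, 7.02 and 7 (1.66 ± 0.65, adjusted p = 0.135, and 0.00446 without propagation 0 h A). ZRT2, the low-affinity zinc importer, was at 8.02, 7.44 and 7.51, against 7.91, 8.73 and 8.72 and overlapped (-0.79 ± 0.31, adjusted p = 0.136). A part of zinc in these differences was not tested, and zinc cannot be told apart from the other differences between the vessels.

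Of 28 iron genes 4 fell and none rose (14.3%; median -0.15), and 11 passed as lower without propagation 0 h A. With the replicate letter as a block 5 fell and 1 rose, and with the spread shared over all 17 arrays 7 fell and 1 rose. FET3, the oxidase of high-affinity iron uptake, read 4.7, 5 and 4.97, against 6.25, 7.73 and 7.99 (-2.43 ± 0.46, adjusted p = 0.0175). Its fermentation values lay near the background level of 4.65 to 4.73. SMF3, which releases vacuolar iron, read 7.22, 7.14 and 7.1, against 8.52, 8.83 and 8.78 (-1.55 ± 0.2, adjusted p = 0.00641). The iron-sulphur scaffold gene ISU2 and the ferric reductase gene FRE1 fell by 1.78 ± 0.3 (adjusted p = 0.0133) and 1.66 ± 0.33 (adjusted p = 0.0214). Of 9 copper genes CUP1-1, the metallothionein, fell (-1.39 ± 0.26, adjusted p = 0.0177), and 1 passed each way without propagation 0 h A. Of 21 phosphate genes 3 fell and 1 rose (14.3% and 4.76%, against 6.74% and 8.57% of all genes tested). PHO84, the high-affinity phosphate transporter induced by phosphate shortage, read 5.79, 5.46 and 5.74, against 6.5, 8.53 and 8.45 (-2.16 ± 0.55, adjusted p = 0.0419), and PHO89, a sodium-phosphate transporter, fell by 1.81 ± 0.33 (adjusted p = 0.0154). None of these calls held, and without propagation 0 h A 7 phosphate genes passed as lower and 2 as higher.

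Among 26 genes of DNA replication and S phase 6 fell and 1 rose (23.1% and 3.85%; median -0.54), and 15 fell and 1 rose without propagation 0 h A. POL30, the sliding clamp PCNA, read 8.98, 9.09 and 9.21, against 10.37, 10.68 and 10.79 (-1.52 ± 0.22, adjusted p = 0.00788). RNR1, the large subunit of ribonucleotide reductase, fell by 1.82 ± 0.46 (adjusted p = 0.0435), whereas RNR3, its copy induced by DNA damage and by glucose shortage, rose by 1.73 ± 0.22 (8.52, 8.54 and 8.74, against 7.15, 6.74 and 6.73, adjusted p = 0.00602). Of 9 histone genes 4 rose and none fell (44.4%; median 0.91), the largest of them HTB2 by 1.55 ± 0.25 (adjusted p = 0.0114), and 8 rose without propagation 0 h A. None of 15 cyclin and cell cycle inhibitor genes passed (median -0.15; 3 as lower without propagation 0 h A), and of 14 genes of cell separation and early G1 1 rose, the chitinase gene CTS1 (1.42 ± 0.35, adjusted p = 0.0397), against 5 without propagation 0 h A. All histone calls were thus rises, while 6 of the 7 DNA replication calls were falls. None of these calls was kept without fermentation 8 h B or C. Meiosis and mating genes served as markers of sporulating or mating cells. Of 17 meiosis and sporulation genes SPS100 rose and SPS1 fell; the list's median was 5.39, 5.09 and 5.01, against 5.96, 4.61 and 5.14, and 3 rose and 1 fell without propagation 0 h A. None of 17 mating genes passed, with medians of 5.86, 5.28 and 5.39, against 5.69, 5.1 and 5.26, while 4 passed as higher and 1 as lower without propagation 0 h A.

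In the vacuole, where yeast recycles protein, 4 of 9 protease genes rose and none fell (44.4%; median 1), and 5 rose without propagation 0 h A. PRC1, carboxypeptidase Y, read 11.56, 12.03 and 12.04, against 9.14, 9.93 and 10.23 (2.11 ± 0.33, adjusted p = 0.0109), and PEP4, the protease that activates the others, rose by 1.08 ± 0.23 (adjusted p = 0.0274). Of 28 autophagy genes 4 rose and none fell (14.3%; median 0.65), including ATG19, the receptor for vacuolar enzymes, by 1.66 ± 0.21 (adjusted p = 0.00616), and 12 rose without propagation 0 h A. None of 15 vacuolar ATPase genes (median 0.42) and none of 33 proteasome genes (median 0.51) passed; without propagation 0 h A 3 of each list did, a share below the 22.8% of all genes. Of 8 flocculation and adhesion genes FLO11, the adhesin of biofilms and filaments, rose (8.2, 8.39 and 8.38, against 7.08, 6.83 and 6.86; 1.4 ± 0.2, adjusted p = 0.00838), and 2 passed as higher without propagation 0 h A. FLO1, the classical flocculin, stood at 2.56, 2.54 and 2.51, against 2.79, 2.85 and 2.39, below the median of the probe sets for another species on every array (3.4 to 3.42 at fermentation 8 h and 3.4 to 3.68 at propagation 0 h).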

How the data were processed

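RNA of a lager yeast was hybridized to single-channel Affymetrix yeast arrays, and the values are the log2 expression summaries deposited by the authors, made with RMA per the submitters' processing notes; which arrays were normalized together, and any earlier step, are not given in the sources used here. RMA equalizes array distributions, so a change shared by most genes would not show. No sequence is printed, and signal intensities and detection calls were not analysed here.

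Of 10928 probe sets, 5498 were listed with an S. cerevisiae gene; the brightest probe set per gene left 5449 genes, 114 of them on probe sets shared among similar sequences. Differences were tested with limma 3.58.1 in R 4.3.3 (lmFit and eBayes, 6 arrays, 4 residual degrees of freedom), with Benjamini-Hochberg adjustment over all genes and a threshold of 0.05. Errors are standard errors of the fit, with 3 arrays per group; for arrays, their number limits the precision. The fit was tested on simulated data. Members, comparison and gene lists were chosen with earlier results of these data known. Some genes, such as CTA1 and ADH4, are on several lists, so the list counts are not independent. The genes named are the 10 largest rises and falls with a standard name and no overlap, 12 antioxidant and stress genes, and up to 6 members per list by size of change; ADR1, IDH2, IDP3, LPD1, ERG24 and ERG28 were named after their values were seen. Groups came from the sample labels, and 20 alternative settings were run.

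Sample titles carry the letters A, B and C in both stages, without saying that they mark a shared batch. Same-letter arrays deviated together from their group means, with correlations over genes of 0.59, 0.64 and 0.32, so a fit with the replicate letter as a block was run beside the main one. Fermentation 8 h B with propagation 0 h C and fermentation 8 h C with propagation 0 h B gave 0.35 and 0.62, as high as same-letter pairs, so the values set A apart from B and C and do not pair B with B and C with C. Titles of the fermentation 8 h samples end in _2, a mark the labels do not explain.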

Additional observations from a re-analysis of the deposited data

How the results depend on the processing

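All 834 calls kept their direction in every setting in which the gene was tested. The number of genes changed, 834, was 108 to 2394 when 1 array was left out (108 to 1216 for at least 2-fold, 42 to 1242 for rises, 66 to 1152 for falls), the low end without fermentation 8 h B and the high end without propagation 0 h A. Without replicate A of both groups it was 3050 (1253 at least 2-fold, 1574 rises, 1476 falls). With array weights it was 3197 (1232, 1663 and 1534), and with the 3′ to 5′ gap as a covariate 1877 (1061, 1118 and 759). With fermentation 8 h B and C averaged to 1 sample it was 104 (104, 39 and 65), and tested against a 2-fold change 51 (51, 13 and 38). Sharing the spread with the 11 arrays outside propagation 8 h and 30 h gave 1388 (824 rises, 564 falls), and with all 17 arrays 1529 (901 and 628). The replicate block gave 1060 genes (617 rises, 443 falls); of the 834 calls 777 passed in it, and beside the values printed above it ended the calls of SNF3 (adjusted p = 0.056) and DAP2 (adjusted p = 0.0529) and no other call named here. The cause of these shifts was not tested. Rescaling moved the median of all genes to 0.04 (recentred) and 0.016 (quantile), with 51.6% and 48.8% of calls being rises, against 56%; it ended the calls of HXT13, PXA1, CYC7, ARO10, SPS100 and ATG7 under both, and of HHT1, NQM1, NDE2, RPS26B and PEP4 under quantile scaling alone. The other settings (no dimmest 25% of genes, genes above background, every probe set, trended and robust variance) gave 768 to 838 genes. Signal over background is known only from probe sets for another species, of which 6 of 1746 (0.344%) had a p as small as a called gene's.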

Other observations

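Of the 834 genes that passed, 594 were on none of the gene lists, 322 of them rises and 272 falls. The genes named here were picked by size of change after their values were seen. Among the rises were RTC3, a small stress-induced protein gene (12.31, 12.09 and 12.1 on fermentation 8 h A, B and C, against 8.74, 9.62 and 9.8 on propagation 0 h A, B and C; 2.78 ± 0.32, adjusted p = 0.00439), and DSF1, which encodes a mannitol dehydrogenase and is read by a shared probe set (11.63, 11.6 and 11.68, against 8.85, 9.12 and 9.24; 2.57 ± 0.21, adjusted p = 0.00256). ALE1, a lysophospholipid acyltransferase that remodels membrane lipids, rose by 2.78 ± 0.28 (adjusted p = 0.0038), and VPS13, a lipid transfer protein at organelle contacts, by 2.48 ± 0.28 (adjusted p = 0.00429). LAP3, a cysteine aminopeptidase, and RGI2, a small protein of energy metabolism, rose by 2.78 ± 0.37 (adjusted p = 0.00664) and 2.48 ± 0.23 (adjusted p = 0.00347). These 6 genes passed in every fit that left out 1 array. DIC1, the mitochondrial dicarboxylate carrier, rose by 2.43 ± 0.49 (adjusted p = 0.0216), and URA10, the minor orotate phosphoribosyltransferase, by 2.77 ± 0.42 (adjusted p = 0.0104).

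The largest unlisted falls lay mostly in ribosome assembly, as on the list. FCF2, of small-subunit RNA processing, read 6.37, 6.14 and 6.11, against 9.33, 9.07 and 9.17 (-2.99 ± 0.21, adjusted p = 0.00216), and FYV7 6.52, 6.25 and 6.32, against 9.38, 9.15 and 9.19 (-2.88 ± 0.2, adjusted p = 0.00216). In both, propagation 0 h A was the highest of its group. NIP7 and MRT4 of the large subunit fell by 2.98 ± 0.35 (adjusted p = 0.00475) and 3.13 ± 0.42 (adjusted p = 0.00675). URA7, a CTP synthase, fell by 2.75 ± 0.64 (adjusted p = 0.0333), with 9.11 on propagation 0 h A and 11.39 and 11.6 on its replicates.

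By level, the rises were more uneven than the falls. With the genes in 3 equal groups by mean signal, 81 rose and 95 fell among the dimmest (4.46% and 5.23%). The numbers were 150 and 145 in the middle group (8.26% and 7.98%), and 236 and 127 among the brightest (13% and 6.99%). Over all genes tested the shares were 8.57% and 6.74%.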
